A study of Aegilops tauschii x Triticum turgidum and Aegilops tauschii and Triticum turgidum subsp. durum with 18 samples.

Results

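The 141 probe sets described here read a transcript in both Aegilops tauschii accessions and none above the array's floor in the tetraploid wheat Joyau. They were chosen from 61179 probe sets (Affymetrix control probe sets left out) by the means of the 2 arrays of each parent: a log2 value of 8 or more in accession 36 and in accession 54, and of 3.5 or less in Joyau. A further 30 probe sets met these cuts but were left out, because another probe set of their transcript cluster was higher in Joyau than in both accessions by 3 or more on the log2 scale. The values in the 3 parents therefore chose the probe sets and are given as a description only. The arrays of natural and synthetic hexaploids and of RNA mixes played no part in the choice, though the mixes hold RNA of the parents.

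Bread wheat is an allohexaploid whose cells hold the A, B and D genomes. The A and B genomes came through a tetraploid wheat, and the D genome came from Ae. tauschii, a diploid goat grass. Crossing a tetraploid wheat with Ae. tauschii makes a synthetic hexaploid, in which the D genome works beside A and B. Gene copies that correspond between the genomes are called homoeologues, and a probe set that matches only the D copy reports on that copy in a hexaploid.

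All arrays held RNA from whole plants aged 40 days, grown in pots with a 16 h photoperiod and given no treatment, hybridised to the Affymetrix GeneChip wheat array, 1 RNA sample per array and 2 arrays per group. Courtot is a natural hexaploid, Triticum aestivum. S1_54 denotes selfed generation 1 and S0_54 selfed generation 0 of the hybrid of Triticum turgidum cultivar Joyau with Ae. tauschii ssp. tauschii accession 54, and S0_36 denotes generation 0 of the hybrid of Joyau with ssp. strangulata accession 36. The labels number the replicates 5 and 7 in S1_54, 3 and 9 in S0_36, and 3 and 4 in S0_54. The labels call every sample's genotype hexaploid, parents included, so the descriptions were followed instead. Mix36 and mix54 are equal-amount mixes of Joyau RNA with RNA of accession 36 or 54. Ae36, Ae54 and Joyau are the parents themselves. The labels call the arrays of the plant groups biological replicates and those of the mixes only replicates.

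The labels of Ae54 replicate 1 conflict, since its organism field names the hybrid and its extract field names the accession 54 mix. Over the 18189 tested probe sets its values correlated with Ae54 replicate 2 at r = 0.971, against 0.739 with the mix54 arrays, 0.728 and 0.729 with the S0_54 arrays and at most 0.512 with Joyau. Whether the conflict also touches the arrays labelled mix54 is not settled by the labels. Their tested values correlated at 0.944 with an equal mix computed from Ae54 and Joyau and at 0.925 with one computed from Ae36 and Joyau, while mix36 correlated at 0.975 with its own computed mix. Both Ae54 arrays correlated more with the mix36 arrays, at 0.773 to 0.774, than with the mix54 arrays, at 0.736 to 0.739. With Ae36 the mix54 arrays correlated at 0.694 to 0.698. With Joyau they correlated at 0.84 to 0.87, and the mix36 arrays at 0.78 to 0.80. Without Ae54 replicate 1 the same cuts chose 134 probe sets, 133 of them shared. The 2 arrays of each mix differed by an SD of only 0.131 (mix36) and 0.117 (mix54) over the tested probe sets, against 0.460 to 0.671 in the plant groups, and were counted as 1 sample in the tests. Labels give 20 µg of total RNA for both Ae36 arrays and Ae54 replicate 2, and 40 µg for the others. Of 15 organ marker genes listed, 3 could be matched to probe sets, each to a brighter and a dimmer one. On the brighter one the photosynthetic gene petC read 12.96 to 14.18 on all arrays, and the leaf-expressed FBP 9.30 to 10.86 and CAT1 9.91 to 12.92. The dimmer ones read 2.375 to 2.926 for petC, 3.55 to 4.70 for FBP and 1.76 to 4.01 for CAT1.

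In the diploids the 141 probe sets had a median log2 value of 9.54 in Ae36 and 9.43 in Ae54, beside 2.82 in Joyau. The lowest single diploid array value was 7.54 and the highest single Joyau array value 4.21. In all, 17 of them lay over 3.5 on 1 of the Joyau arrays, though not in the mean. Whether a probe set at the floor in Joyau stands for a missing transcript or for one whose sequence the probes do not match cannot be told apart on these arrays. In whole-plant RNA, fewer cells of a type and less RNA per cell cannot be told apart either. The probe sets just inside the diploid cut, TaAffx.8112.2.S1_s_at, TaAffx.128418.36.S1_at and Ta.23397.2.S1_x_at, had a lower diploid mean of 8.008, 8.013 and 8.015. Those just outside it, Ta.5002.1.S1_at, Ta.22570.1.S1_at and Ta.6884.1.A1_at, were at 7.998, 7.996 and 7.963. At the Joyau cut the nearest inside were Ta.28895.1.S1_at, Ta.1929.1.S1_at and Ta.7947.1.S1_at at 3.47, 3.44 and 3.44. The nearest outside, Ta.7479.2.S1_x_at, Ta.11112.3.S1_at and Ta.15234.1.S1_at, were at 3.502, 3.503 and 3.516.

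These transcripts did not disappear in the hexaploids. With a mean log2 value of 5 or more called seen, 141 of 141 were seen in Courtot, 130 in S1_54, 141 in S0_36 and 140 in S0_54. None was at the floor of 3.5 or less in Courtot, S0_36 or S0_54, and 1 was in S1_54. Array by array, 139 of 141 were above both Joyau arrays on all 8 arrays of synthetics and Courtot, and 127 were at 5 or more on all 8. Over all 61179 probe sets, 22.4% were seen in Courtot, 21.2% in S1_54, 22.5% in S0_36 and 22.4% in S0_54. The members had been chosen as bright in the diploids, so these array-wide shares are a setting for the counts and not a like-for-like comparison.

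Their level was lower than in the diploids. The median over the 141 was 7.87 in Courtot, 7.77 in S1_54, 7.96 in S0_36 and 7.93 in S0_54. On all 8 arrays of synthetics and Courtot, 90 of the 141 lay below all 4 diploid arrays. The plot of levels by array shows the medians of Courtot and the synthetics between those of the diploids and Joyau.

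**Figure D1:**
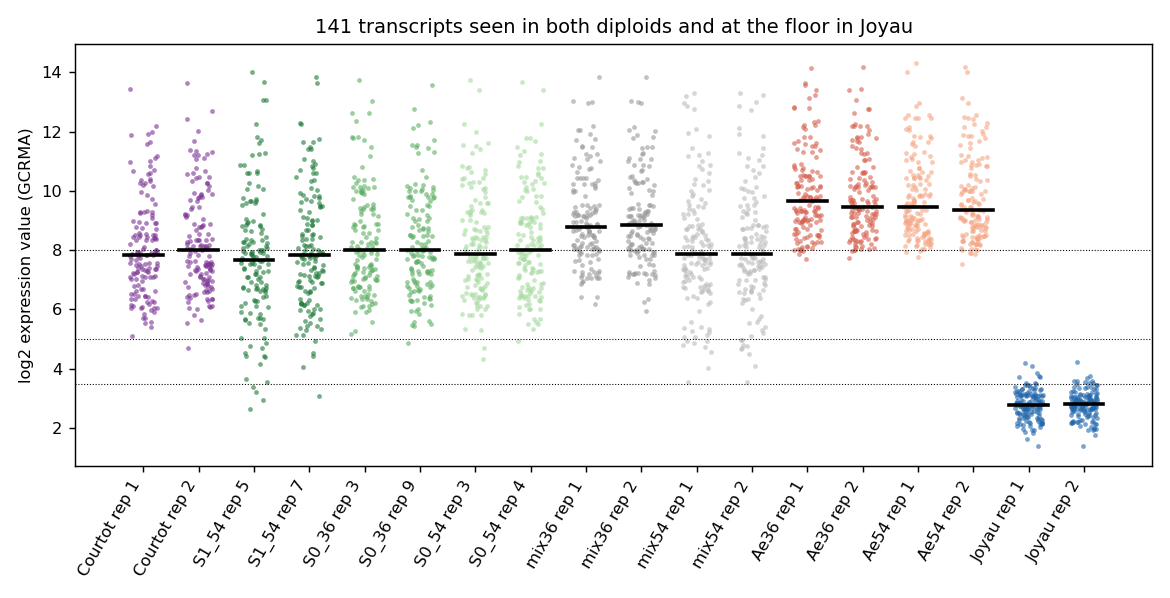
Log2 expression values (y axis) of the 141 probe sets on each of the 18 arrays (x axis, group and replicate number). Points are probe sets, black bars are medians, and dotted lines mark the values 3.5, 5 and 8. Medians run from 7.68 to 8.02 on the arrays of Courtot and the synthetics, from 9.36 to 9.67 on the diploid arrays and from 2.79 to 2.81 on the Joyau arrays.

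On the linear scale, each value was expressed as a percent of the mean of the diploid parent of the same cross, and of both diploids for Courtot. The median over the 141 was 29.2% and 32.0% on Courtot replicates 1 and 2, 23.9% and 30.3% in S1_54 replicates 5 and 7, 30.4% and 31.6% in S0_36 replicates 3 and 9, and 34.6% and 34.5% in S0_54 replicates 3 and 4. One genome out of 3 is 33.3%. S1_54 replicate 5 was the lowest of these 8 arrays, and the other 7 lay within 29.2% to 34.6%. The hybridization controls, 18 probe sets for control RNAs added to each hybridisation, averaged 11.11 ± 1.41 in Ae36 (SD, n = 2), so its arrays differed in them. With either Ae36 array left out, S0_36 was at 30.8% and 32.1%. Because the diploid values chose the probe sets, chance highs in the diploids lower these percentages, and no test was made.

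The median hides a wide spread among members. In S0_54, 6 of the 141 exceeded the diploid level, 22 were at 50% to 100% of it, 111 at 10% to 50% and 2 under 10%. In S0_36 the same classes held 10, 23, 104 and 4, in S1_54 9, 23, 97 and 12, and in Courtot 5, 20, 108 and 8. Ta.1973.1.S1_at was the 1 member of the 141 whose mean stood above the diploid in all 4 hexaploid groups, at 216% in Courtot, 258% in S1_54, 267% in S0_36 and 142% in S0_54. LOC100037518 (Ta.20434.1.S1_at) was the lowest member in both groups of the accession 54 cross, at 2.28% in S1_54 and 3.21% in S0_54, but stood at 6.29% in Courtot and 30.0% in S0_36. The lowest in Courtot was Ta.23397.2.S1_x_at at 2.05%, and the lowest in S0_36 was Ta.9170.1.S1_at at 7.42%.

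**Figure D2:**
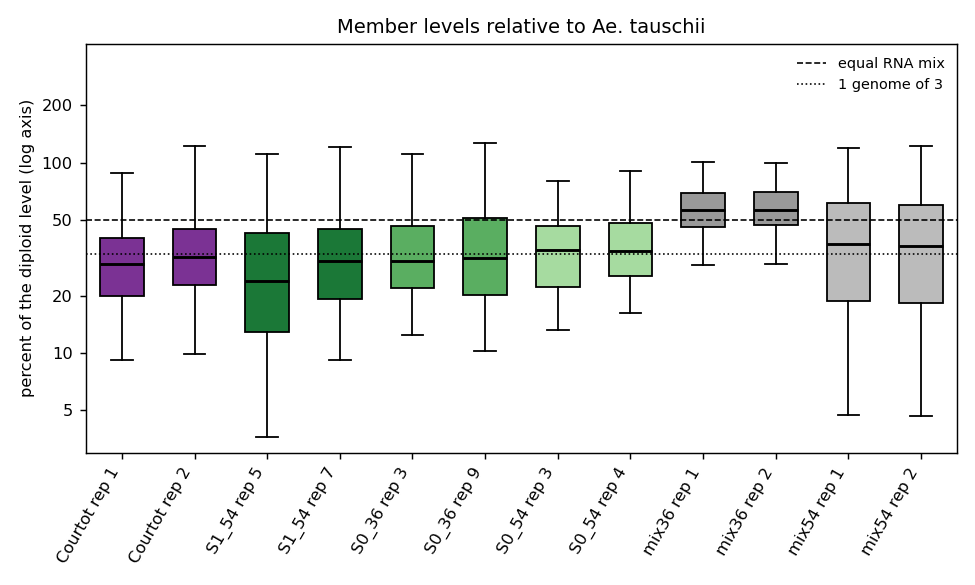
Level of the 141 probe sets as a percent of the diploid mean (y axis, log scale) on each array of Courtot, the synthetics and the mixes (x axis). Boxes span the quartiles with the median, whiskers the 5th to 95th percentile over probe sets, and lines mark 50% and 33.3%. The medians of Courtot and the synthetics lie between 23.9% and 34.6%, those of mix36 at 56.3% and 56.4%, and those of mix54 at 37.2% and 36.7% with a wider box.

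The mixes did not behave alike. In mix36 the median was 56.3% and 56.4% of Ae36 on its arrays, with 88 of the 141 between 50% and 100% and none under 10%. In mix54 it was 37.2% and 36.7% of Ae54, with 32 between 50% and 100% and 20 under 10%. Relative to the level computed from equal parts of the parents' linear values, mix36 was lower by 1 log2 unit or more for 3 members and higher by as much for 7. Mix54 was lower by 1 or more for 51 members and higher by 1 or more for 11. The SD over members of mix54 minus Ae54 was 1.36 on the log2 scale, against 0.516 for mix36 minus Ae36 and 0.824 for S0_54 minus Ae54.

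Single members show how far mix54 departed from its own parents. TaAffx.499.1.A1_at read 3.56 on both mix54 arrays, the Joyau level, although Ae54 read 8.66 and 8.18. Ta.9513.1.S1_a_at read 6.57 and 6.37 in mix54, against 11.85 and 11.86 in Ae54. Ta.28592.1.S1_at went the other way, at 11.29 and 11.27 in mix54 and 10.21 and 9.91 in Ae54. Every S0_54 or S1_54 minus mix54 value below therefore rests on arrays that match their labelled parents less well than mix36 does, and the parts of mix and synthetic in it were not tested.

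Setting the S0 arrays against the mixes addresses where a cross departs from mixed parental RNA. The arrays of neither side were used to choose the probe sets, but the mixes hold RNA of the parents whose values were used. Highs of the parent plants could carry into the mixes and lower these differences, which was not tested. In the accession 36 cross, most of the 141 were lower in the synthetic. The median of S0_36 minus mix36 was -0.86 on the log2 scale over the 141, against -0.14 over all tested, and 122 of the 141 differences were negative. An equal RNA mix holds 50% diploid RNA, whereas 1 genome of 3 is 33.3%, so a D-genome transcript at an unchanged level per genome would lie at -0.585 if the 3 genomes gave equal RNA. In S0_36 minus mix36, 96 of the 141 were under that value, and in S0_54 minus mix54, 47. The calls below are against 0, not against -0.585. In limma's moderated test with Benjamini-Hochberg adjustment over 18189 probe sets, 41 of the 141 passed as lower and 6 as higher at an adjusted p under 0.05. Over all tested probe sets 6.7% passed as lower and 6.28% as higher. The members are brighter in the median than the tested probe sets, so such shares, here and below, are a setting and not a like-for-like comparison.

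Among the members that fell against mix36, Ta.23397.2.S1_x_at read 8.27 and 8.98 in S0_36, against 12.18 and 12.15 in mix36 and 12.36 and 12.18 in Ae36. Its difference was -3.54 ± 0.62 (SE, adjusted p = 0.00454), and no S0_36 array overlapped a mix array. Ta.30540.1.S1_at read 5.59 and 5.96 in S0_36 and 8.50 and 8.49 in mix36, a difference of -2.72 ± 0.40. Ta.5267.2.S1_at, at 7.08 and 7.62 in S0_36 and 9.95 and 9.93 in mix36, differed by -2.59 ± 0.42. These 3 differences kept their calls when any 1 array of either group was left out.

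The risers were few. Ta.7843.1.S1_a_at read 10.02 and 10.24 in S0_36, above 7.83 and 7.85 in mix36 and above 8.0004 and 9.10 in Ae36. It rose by 2.29 ± 0.36 (SE, adjusted p = 0.00236). Ta.1973.1.S1_at read 11.71 and 11.72 in S0_36 and 9.46 and 9.52 in mix36, and rose by 2.22 ± 0.46 (adjusted p = 0.0104). Ta.8733.1.S1_at rose by 1.73 and Ta.14007.1.S1_at by 1.39. The rise of Ta.14007.1.S1_at kept its call in 2 of the 4 fits that leave out an array of either group. Both S0_36 arrays of Ta.7843.1.S1_a_at, Ta.1973.1.S1_at and Ta.8733.1.S1_at were also above both Ae36 arrays. Fewer of the 141 and of all tested passed without S0_36 replicate 9, where the median was -0.81 over the 141 and -0.12 over all tested. With the mix arrays counted as separate samples 94 passed (11 higher, 83 lower), beside 30.8% of all tested, and with only S0_36 and mix36 in the fit 13, beside 5.34%.

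In the accession 54 cross the members were split. The median of S0_54 minus mix54 was -0.02 over the 141, against -0.06 over all tested, and turned to 0.05 under quantile normalization and under centring on array medians. Here 24 passed as higher and 19 as lower. Over all tested probe sets 3.99% passed as higher and 5.65% as lower, together 9.64%. The histograms of synthetic minus mix show one mode below 0 in the accession 36 cross and a broad spread on both sides of 0 in the accession 54 cross.

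**Figure D3:**
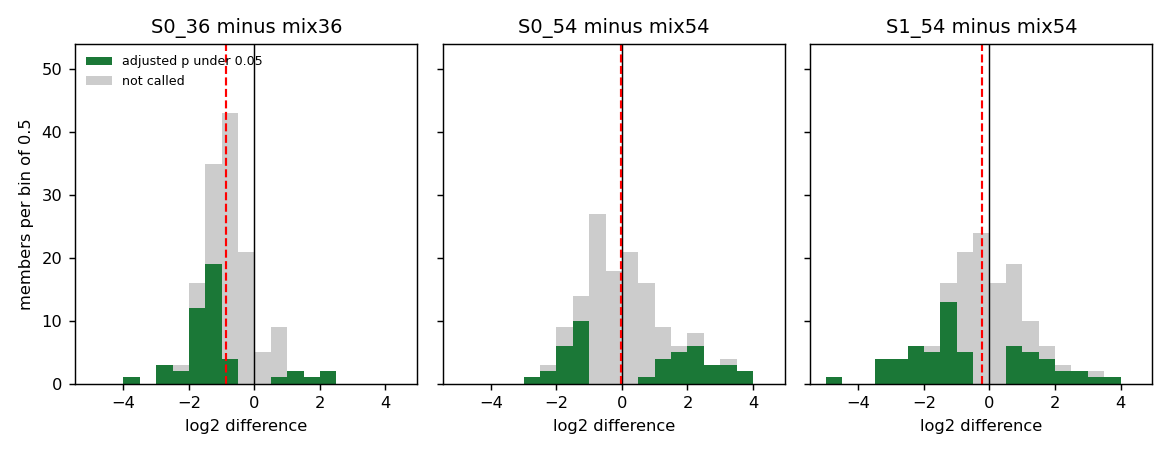
Histograms of the log2 difference between each synthetic group and its RNA mix (x axis) over the 141 probe sets (y axis, number per bin of 0.5), with those at an adjusted p under 0.05 in green and the rest in grey. The solid line marks 0 and the dashed line the median, which is -0.86 for S0_36, -0.02 for S0_54 and -0.23 for S1_54.

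The top rises in S0_54 were those of Ta.1426.1.S1_at and Ta.15101.1.S1_s_at. Ta.1426.1.S1_at read 9.30 and 8.95 in S0_54 and 5.27 and 5.19 in mix54, a difference of 3.89 ± 0.58 (SE, adjusted p = 0.0025). Ta.15101.1.S1_s_at read 8.35 and 8.55 in S0_54 and 5.08 and 4.77 in mix54, a difference of 3.53 ± 0.52. For both, Ae54 was above the synthetic, at 10.45 and 10.10 and at 9.60 and 9.36, so the S0_54 arrays lay between the mix and the diploid. Ta.12896.1.S1_at, at 8.10 and 8.18 in S0_54 against 5.41 and 5.68 in mix54, rose by 2.59 ± 0.22 (adjusted p = 6.99e-05).

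Of the members that fell in S0_54, Ta.24737.1.S1_x_at read 7.00 and 6.40, against 9.60 and 9.63 in mix54, a difference of -2.92 ± 0.48 (adjusted p = 0.00409). LOC100037518 read 5.32 and 5.35 in S0_54 and 7.76 and 7.75 in mix54, and Ae54 stood at 10.42 and 10.16. It fell by 2.42 ± 0.44 (adjusted p = 0.00671), and both S0_54 arrays were lower than every array of the mix and the diploid. Fewer of the 141 and of all tested passed without S0_54 replicate 3 or 4. The medians without them were -0.02 and -0.11 over the 141, and -0.06 and -0.07 over all tested. With separate mix arrays 74 passed (33 higher, 41 lower), beside 24.4% of all tested. A fit of S0_54 and mix54 alone left 0 by limma, while 79 of the 141 and 30.4% of all tested had an unadjusted p under 0.05.

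The difference of the synthetic-minus-mix values between the crosses, S0_36 minus mix36 less S0_54 minus mix54, had a median of -0.87 over the 141 and -0.04 over all tested. It passed as lower for 15 of the 141 and as higher for 3, beside 0.874% lower and 1.6% higher over all tested. With separate mix arrays 54 passed as lower and 10 as higher (10.7% of all tested in either direction), with array weights 27 and 6 (4.26%), under quantile normalization 25 and 3 (4.24%) and after centring 22 and 3 (2.91%). Mix54 was lower than mix36 in 14 of the 15, while the S0 groups varied from level to well apart. In Ta.28766.3.S1_at the S0 groups were level, with means of 8.38 in S0_36 and 8.35 in S0_54, while mix36 averaged 9.39 and mix54 5.12, and its difference of crosses was -4.24 ± 0.49 (SE, adjusted p = 0.00197). Ta.1426.1.S1_at, by contrast, averaged 6.97 in S0_36 and 9.12 in S0_54.

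In generation 1 of the accession 54 cross, 21 of the 141 passed as higher and 38 as lower than mix54, beside 6.53% higher and 14.1% lower over all tested. The median was -0.23 over the 141 and -0.27 over all tested. The split became 27 higher and 32 lower under quantile normalization, and 26 and 28 with arrays centred on their medians. Ta.1973.1.S1_at read 11.21 and 10.85 in S1_54 and 7.35 on both mix54 arrays, and rose by 3.68 ± 0.46 (SE, adjusted p = 0.00076). Ta.23322.2.S1_at read 5.05 and 6.78 in S1_54, against 10.73 and 10.69 in mix54, and fell by 4.80 ± 0.73 (adjusted p = 0.00217). LOC542997 fell on both its probe sets, with differences of -2.54 on Ta.1200.1.S1_at and -2.45 on Ta.1200.1.S1_x_at. Fewer of the 141 and of all tested passed without S1_54 replicate 7, where the median was -0.31 over the 141 and -0.32 over all tested. A fit of S1_54 and mix54 alone left 0 by limma, while 70 of the 141 and 31.5% of all tested had an unadjusted p under 0.05. The hybridization controls averaged 10.60 in S1_54 and 9.21 in mix54, and their part in the result was not tested.

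S1_54 was set against S0_54 to ask what changed with selfing. In all 18 of the 141 passed as lower and 3 as higher in S1_54, beside 5.08% lower and 4.06% higher over all tested, together 9.14%. The medians were -0.33 over the 141 and -0.22 over all tested. Far fewer of the 141 passed in limma's test without S1_54 replicate 5 or without either S0_54 array. Leaving out S1_54 replicate 7 left about as many. Fewer of all tested passed in each of these fits, which leave a group with no replicate. The fits therefore cannot tell whether the calls rest on the array left out or were lost with the replication. Without S1_54 replicate 5 the median was -0.21 over the 141 and -0.16 over all tested, and without S0_54 replicate 4 it was -0.35 and -0.19. The split of 3 higher and 18 lower was 5 and 15 after quantile normalization and 6 and 9 after centring. With mix arrays separate 44 passed (18.0% of all tested), with array weights 46 (20.4%), with no filter on low values 7 (2.12%), and 5 (3.38%) when no other group entered the fit. The hybridization controls averaged 10.60 ± 0.17 in S1_54 and 9.58 ± 0.16 in S0_54 (SD, n = 2 each), and their part in the result was not tested.

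TaAffx.6618.1.S1_at was the member that was at the floor in S1_54. It read 2.94 and 3.07 in S1_54 and 5.82 and 6.02 in S0_54. It fell by 2.92 ± 0.52 (SE, adjusted p = 0.00968). The call was kept in 1 of the 4 fits that leave out an array of either group, with an adjusted p of up to 0.0892. Both S1_54 arrays were close to Joyau, at 2.79 and 2.76, while Courtot read 5.54 and 7.56. Ta.1700.1.S1_at was at 2.63 on S1_54 replicate 5 and at 4.93 on replicate 7, against 5.84 and 5.85 in S0_54. The 3 risers were TaAffx.131320.1.S1_at, Ta.28592.1.S1_at and TaAffx.128796.1.S1_at, by 1.98, 1.65 and 1.57. Of the 4 fits that leave out an array, TaAffx.131320.1.S1_at and Ta.28592.1.S1_at each kept their call in 1 and TaAffx.128796.1.S1_at in 0. TaAffx.131320.1.S1_at read 10.62 and 9.92 in S1_54, above 8.64 and 7.93 in S0_54 and above 9.06 and 8.86 in Ae54.

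In all 11 members had a mean under 5 in S1_54, from 3.00 to 4.997. On replicate 5 alone 127 of the 141 were at 5 or more and 4 at the floor, and on replicate 7 alone 136 and 1. In S0_54 only Ta.12172.1.S1_at had a mean under 5, at 4.33 and 4.93.

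S0_36 was set against S0_54 to compare the D-genome donors within hexaploids. Of the 141, 21 passed between S0_36 and S0_54, 11 higher and 10 lower in S0_36, beside 5.56% higher and 1.91% lower over all tested, together 7.47%. The medians were -0.04 over the 141 and -0.12 over all tested. Leaving out each array of either group in turn gave fewer calls among the 141 and among all tested. The median over the 141 was -0.07 without S0_36 replicate 3 and 0.01 without its replicate 9. It was -0.07 without S0_54 replicate 3 and -0.01 without its replicate 4. Array weights gave 33, beside 15.2% of all tested.

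Ta.7843.1.S1_a_at read 10.02 and 10.24 in S0_36 and 13.41 and 13.39 in S0_54, which gave -3.27 ± 0.29 (SE, adjusted p = 6.41e-05). The diploids read 8.0004 and 9.10 in Ae36 and 14.00 and 14.01 in Ae54. Ta.1700.1.S1_at went the opposite way, at 9.44 and 9.91 in S0_36 and 5.84 and 5.85 in S0_54, which gave 3.83 ± 0.55 (adjusted p = 0.00149), where Ae36 read 12.23 and 11.82 and Ae54 7.94 and 8.26. Ta.28592.1.S1_at was higher in S0_36 by 2.59 ± 0.29, at 13.03 and 12.77 against 10.31 on both S0_54 arrays. In each of the 3 the order of the S0 groups was that of their diploid parents.

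The 9 members whose diploids differed by 2 or more all differed in the same direction between S0_36 and S0_54, and 7 of the 9 passed there. The share passing among all tested probe sets with such a diploid difference was not computed. Of the 21 members called between S0_36 and S0_54, 16 had the sign of the diploid difference. Among the 31 members with a diploid difference of 1 or more, 23 had the same sign in S0. Across the 141, Ae36 minus Ae54 and S0_36 minus S0_54 correlated at a Pearson r of 0.642 and a Spearman rho of 0.487. The members share arrays on each axis, so this is a description. LOC100037518 did not follow its parents: Ae36 read 10.26 and 10.14 and Ae54 10.42 and 10.16, but S0_36 read 8.25 and 8.65 and S0_54 5.32 and 5.35, which gave 3.11 ± 0.36 (adjusted p = 0.000313). LOC780670 (Ta.7314.1.S1_at) was likewise higher in S0_36, at 8.69 and 8.46 in S0_36 against 6.33 and 6.43 in S0_54, by 2.20 ± 0.26 (adjusted p = 0.000362), with Ae36 at 8.99 and 8.40 and Ae54 at 8.32 and 8.50. Its cluster has 4 other probe sets, and 3 of them were seen in Joyau, with means of 6.64, 7.68 and 7.36. These 3 were also higher in S0_36, with means of 10.03, 9.91 and 9.81 against 8.375, 8.26 and 7.90 in S0_54. Which genome's copies gave the difference was not tested.

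**Figure D4:**
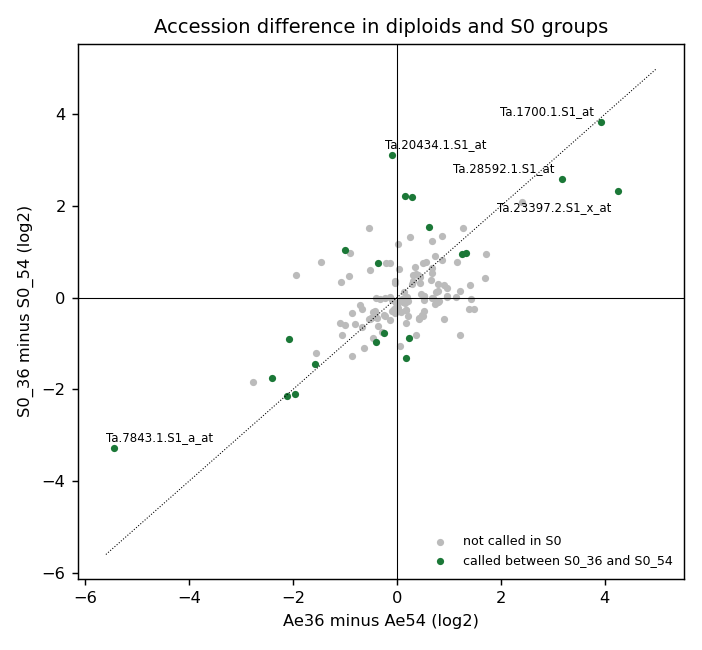
Difference between the diploids, Ae36 minus Ae54 (x axis, log2), and between the S0 groups, S0_36 minus S0_54 (y axis, log2), for the 141 probe sets, in green where the S0 difference had an adjusted p under 0.05. The dotted line marks equal differences. Ta.1700.1.S1_at lies far out close to this line, Ta.7843.1.S1_a_at is farthest left with a smaller S0 than diploid difference, and Ta.20434.1.S1_at lies high in S0 at a diploid difference near 0.

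Courtot, the natural hexaploid, was set against the average of the 3 synthetic groups. Here 24 of the 141 passed as higher and 26 as lower in Courtot, beside 14.5% higher and 11.9% lower over all tested. The medians were -0.03 over the 141 and 0.05 over all tested. Without Courtot replicate 1 fewer of the 141 and of all tested passed, and the median was 0.04 over the 141 and 0.12 over all tested.

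Ta.30540.1.S1_at showed the widest gap. It read 10.35 and 10.16 in Courtot, against 4.41 and 5.46 in S1_54, 5.59 and 5.96 in S0_36 and 6.46 and 6.72 in S0_54, which gave 4.49 ± 0.27 (SE, adjusted p = 7.14e-07). Both Courtot arrays were also above every diploid array, the highest of which was 9.73. Ta.12172.1.S1_at read 8.35 and 10.02 in Courtot and 3.23 to 6.45 on the synthetic arrays, a difference of 4.30 ± 0.46. Ta.7467.1.S1_x_at was higher in Courtot by 2.47 ± 0.16, at 11.18 and 11.22, and Ta.29531.1.S1_x_at by 1.94 ± 0.15. These 4 kept their calls when any 1 array was left out.

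TaAffx.6654.1.S1_at was lower in Courtot, at 6.45 and 6.69 against 8.71 to 9.59 on the synthetic arrays, a difference of -2.63 ± 0.22 (adjusted p = 9.79e-06). Ta.22938.1.S1_at, at 5.10 and 5.66 in Courtot and 6.94 to 8.15 on the synthetic arrays, differed by -2.14 ± 0.19. Ta.12896.1.S1_at, at 6.46 and 6.28 in Courtot, differed by -1.87 ± 0.14. LOC542997 was lower in Courtot on both its probe sets, with differences of -1.44 ± 0.30 on Ta.1200.1.S1_at and -1.43 ± 0.32 on Ta.1200.1.S1_x_at, each called in 7 of the 8 fits that leave out an array. The highest level of LOC542997 was in the diploids, at 13.12 and 12.19 in Ae36 and 12.10 and 12.17 in Ae54, and Courtot at 8.20 and 8.67 was its lowest hexaploid group.

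**Figure D5:**
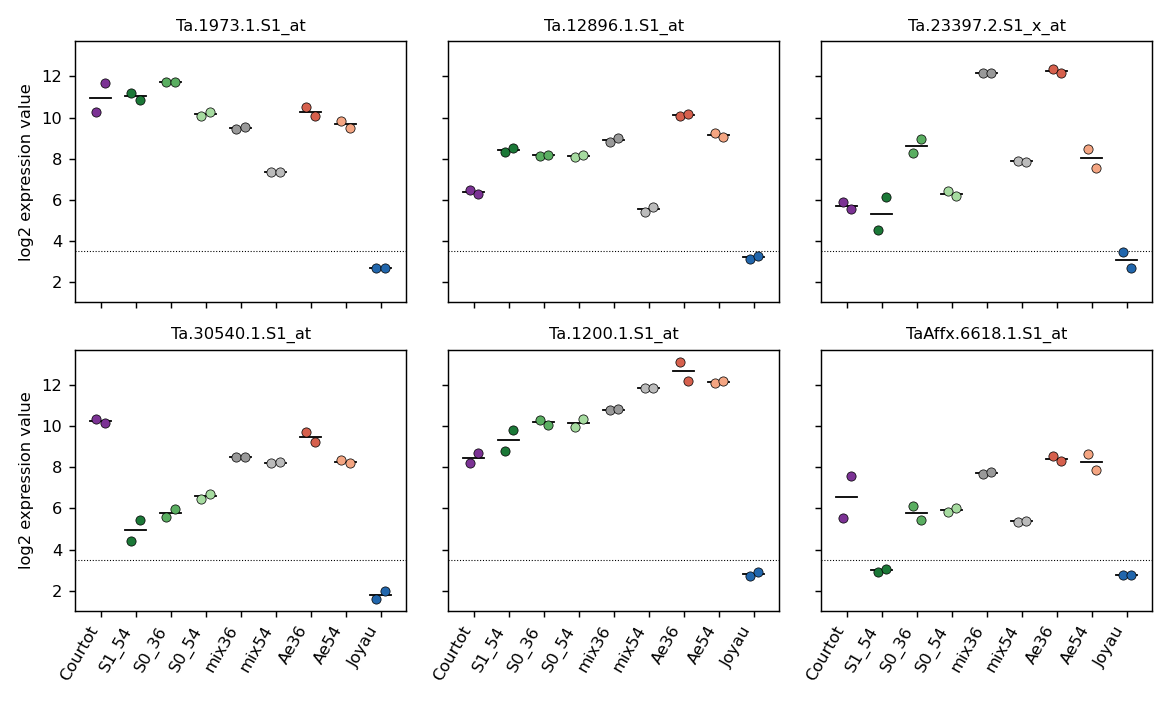
Log2 expression values (y axis) of 6 members in the 9 groups (x axis). Points are single arrays, bars are group means, and the dotted line marks 3.5. Ta.30540.1.S1_at is high in Courtot and low in the synthetics, Ta.12896.1.S1_at is low in Courtot and in mix54, and TaAffx.6618.1.S1_at is at the Joyau level in S1_54.

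The brightest member was Ta.13207.1.S1_x_at. It read 13.45 and 13.65 in Courtot, 14.01 and 13.85 in S1_54, 13.75 and 13.57 in S0_36 and 13.73 and 13.68 in S0_54, against 14.15 and 14.17 in Ae36, 14.31 and 14.19 in Ae54 and 2.50 and 2.47 in Joyau. Next came the Ta.9400 and Ta.9274 clusters. Ta.9400.1.S1_at averaged 11.16 in Courtot and 13.30 over both diploids, and Ta.9274.1.S1_at averaged 11.48 in Courtot and 12.65 over both diploids. Probe sets differ in brightness per transcript, so no order of transcript amounts follows.

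Only 7 of the 141 probe sets carry a gene symbol, for 5 genes, and all 5 are LOC identifiers, with no gene description in the table used here. LOC780599 differed between the replicates of 5 groups. Its probe set Ta.13070.2.S1_a_at read 11.11 and 9.19 in Courtot, 8.80 and 10.92 in S1_54, 9.98 and 10.03 in S0_36, 9.02 and 10.97 in S0_54, 9.92 and 11.52 in Ae36 and 9.84 and 11.89 in Ae54. The S0_36 arrays were alike, while within each of the other 5 groups one array was far above the other. Its other probe set, Ta.13070.2.S1_x_at, showed the same order of arrays in these 5 groups. LOC606369 (Ta.24806.3.S1_at) read 4.43 and 5.14 in S1_54 and 6.13 on both S0_54 arrays, which gave -1.35 ± 0.29 (SE, adjusted p = 0.0209), a call kept in 1 of the 4 fits that leave out an array.

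By the first number in their names the 141 probe sets fall into 130 clusters, 10 of which hold 2 or 3 of them. Probe sets of one cluster can read one transcript and are not counted as separate evidence. TaAffx.128418, with 2 members, is no such group, since it holds 111 further probe sets and 5 gene symbols. In 9 of these 10 clusters the members' levels relative to the diploids differed by at most 0.708 on the log2 scale in any hexaploid group. The exception was Ta.22766, with a gap of up to 2.94. Its Ta.22766.1.S1_a_at was at 137% of the diploid in S0_36 and 222% in S0_54, and Ta.22766.2.S1_x_at at 177% in S0_36 and 178% in S0_54, but Ta.22766.1.S1_at at 17.5% in S0_36 and 56.8% in S0_54.

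Other probe sets of the same clusters show whether a related transcript was read in Joyau. With TaAffx.128418 left aside, 66 clusters have 141 further probe sets on the array, of which 52 were seen in Joyau and 75 in both diploids. They covered 32 clusters with another probe set seen in Joyau. The rule had removed clusters with a probe set much higher in Joyau, so these counts understate the clusters with a Joyau counterpart. For 60 clusters the member was the only probe set.

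By kind of probe set, 16.3% of the members were of the x type, whose probes may match unrelated transcripts, 6.38% of the s type, shared by several transcripts, and 6.38% of the a type, shared by variants of one gene. Among the 3207 probe sets at 8 or more in both diploids these shares were 25.8%, 9.36% and 17.4%. Probe sets with names beginning TaAffx made up 17.0% of the members and 8.82% of those 3207. The members were 4.40% of the 3207.

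Transcripts seen in only one parent gave a frame for these counts. With the same cuts, 249 probe sets were at 8 or more in Joyau and 3.5 or less in both diploids, 30 were at 8 or more only in Ae36 and 8 only in Ae54. No clusters were left out of these 3 sets, whereas the diploid-pair set would hold 171 probe sets without that step. Of the diploid-pair set, 100% were seen in Courtot, against 91.6% of the Joyau-only set, 63.3% of the Ae36-only set and 6 of 8 of the Ae54-only set. In S1_54 the diploid-pair set was below the Joyau-only set, at 92.2% against 96.0%. The same shares were 100% and 96.8% in S0_36, and 99.3% and 95.2% in S0_54. In S0_54, where accession 36 was no parent, 140 of 141 of the set from both diploids were seen, against 1 of 30 of the Ae36-only set. By choice the Ae36-only set was at 3.5 or less in Ae54 and Joyau, and the 141 at 8 or more in Ae54. That contrast therefore follows the cuts on the parents and shows nothing further. The differences between these sets were not tested.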

How the data were processed

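The values used were the log2 expression values that the authors deposited for 18 arrays, a GCRMA output per the submitters' processing notes, with its version not given in the sources used here. GCRMA corrects background by probe sequence, normalizes all arrays together and compresses low values towards a floor near 2 to 3, so folds of dim probe sets are understated. The 61290 deposited probe sets include 111 Affymetrix controls, which were left out. Tests used limma 3.58.1 in R 4.3.3 on the 18189 probe sets at 5 or more on at least 2 arrays, with all 9 groups in one fit of 16 samples, the arrays of each mix averaged, two-sided, with Benjamini-Hochberg adjustment over all tested and a threshold of 0.05. All 141 members passed this filter, as the diploid arrays alone pass it. The fit was tested on simulated data. Members and lists were chosen with earlier results of these data known. Members named are those with a gene symbol, up to 12 top rises and falls per comparison among calls of 1 or more on the log2 scale without overlap of arrays, the brightest members, the extremes relative to the diploid, and those nearest the cuts. Ta.13070.2.S1_x_at, Ta.28592.1.S1_at in mix54 and the Ta.22766 cluster were described after their values were seen. Levels relative to the diploid were ratios of 2 to the power of the log2 values. With 2 arrays per group, precision rests on the spread pooled over groups. Alternatives were the mix arrays as separate samples, quantile normalization, centring, no filter, array weights, the contrast's groups alone, leaving out each array, other cuts for a seen transcript and other forms of the choice of probe sets. Alternatives for the level relative to the diploid were chosen after seeing the data. No sequence table was used here, so no sequences are shown.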

Additional observations from a re-analysis of the deposited data

Results flagged for a closer look

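The difference between synthetic and mix was not the same in both crosses for 18 of the 141 probe sets, by limma's test of the difference itself (S0_36 minus mix36, less S0_54 minus mix54), beside 2.47% of all tested. In Ta.1426.1.S1_at it was -5.42 and in Ta.1426.1.S1_x_at, of the same cluster, -4.50. In Ta.15101.1.S1_s_at it was -5.15, in Ta.28766.3.S1_at -4.24, in Ta.7467.1.S1_x_at -3.84 and in Ta.5267.2.S1_at -3.44. It was -3.38 in Ta.7773.1.S1_x_at, -3.32 in Ta.12896.1.S1_at, -3.22 in Ta.17683.1.S1_at and -3.06 in Ta.24600.1.A1_at. It was -2.86 in TaAffx.50270.1.S1_at, -2.74 in Ta.16093.1.S1_at, -2.60 in Ta.26473.1.S1_at, -2.49 in Ta.11065.1.A1_at and -1.90 in TaAffx.8112.2.S1_s_at. The 3 positive differences were 2.02 in LOC780670 (Ta.7314.1.S1_at), 2.54 in Ta.6995.1.S1_x_at and 2.91 in Ta.29531.1.S1_x_at. Of the 8 fits that each leave out an array, LOC780670 and Ta.17683.1.S1_at were called in 4, Ta.6995.1.S1_x_at, Ta.1426.1.S1_x_at, Ta.11065.1.A1_at and TaAffx.8112.2.S1_s_at in 6, and Ta.5267.2.S1_at and Ta.7773.1.S1_x_at in 7.

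The mixes differed between the crosses as well as the synthetics. In Ta.7467.1.S1_x_at mix36 averaged 11.48 and mix54 6.67, while S0_36 averaged 9.71 and S0_54 8.73. In Ta.29531.1.S1_x_at mix36 averaged 9.17 and mix54 12.98, while S0_36 averaged 9.95 and S0_54 10.85. In LOC780670 the mixes lay close, at 7.84 in mix36 and 7.67 in mix54, and the synthetics apart, at 8.58 in S0_36 and 6.38 in S0_54. The parts of mix and synthetic in these differences were not tested.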

How the results depend on the processing

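No paired analysis was possible because the groups compared share fewer than 2 replicate numbers. Of 135 named calls, none turned its direction under any alternative run, while 40 lost significance with no filter on low values, 75 with only the contrast's groups in the fit, 3 after centring and 1 with array weights, and 135 times a call was lost when an array was left out, against 569 times kept. The number of probe sets seen was within 1.5 times in every group under every alternative run. With the mix arrays as separate samples 94 passed in S0_36 minus mix36 (30.8% of all tested) and 74 in S0_54 minus mix54 (24.4%). In that setting 44 passed in S1_54 minus S0_54 (18.0%) and 64 in the difference of crosses (10.7%). With only the contrast's groups in the fit, 13 passed in S0_36 minus mix36 and 5 in S1_54 minus S0_54 by limma. In S0_54 minus mix54 and in S1_54 minus mix54, 0 passed. At an unadjusted p under 0.05, limma gave 84 members and 30.1% of all tested in S0_36 minus mix36. The same figures were 79 and 30.4% in S0_54 minus mix54, 70 and 31.5% in S1_54 minus mix54, and 55 and 31.9% in S1_54 minus S0_54. Array weights gave 46 in S1_54 minus S0_54 (20.4% of all tested), 33 in S0_36 minus S0_54 (15.2%) and 33 in the difference of crosses (4.26%). Quantile normalization gave 28 in the difference of crosses (4.24%), and no filter gave 7 in S1_54 minus S0_54 (2.12%). The cause was not tested. The share of all tested that passed moved with these settings as well, and when arrays were left out.

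Leaving out each array in turn gave 29 to 49 in S0_36 minus mix36, 23 to 43 in S0_54 minus mix54, 39 to 61 in S1_54 minus mix54, 0 to 22 in S1_54 minus S0_54, 7 to 11 in S0_36 minus S0_54, 26 to 52 in Courtot minus the synthetics and 13 to 19 in the difference of crosses. It chose 134 to 146 probe sets, and a Joyau mean of 3 or less chose 91. The level relative to the diploid, 56.4% in mix36, was 53.8% after quantile normalization and 47.4% after centring. In mix54 it was 33.6% and 31.0%, in S0_36 (31.0%) 29.7% and 26.8%, and in S0_54 (34.5%) 32.9% and 30.8%. Courtot (30.6%) gave 27.4% after centring. Leaving out each diploid array in turn gave 56.3% to 58.8% in mix36, 35.7% to 36.2% in mix54, 30.8% to 32.1% in S0_36, 33.2% to 35.4% in S0_54 and 30.1% to 31.8% in Courtot. The mix36 level was over 50% except after centring, and the other levels stayed under 50%. Signals near the floor limit what can be said of dim members, since differences there are compressed.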
